A study of Mus musculus with 11 samples.

Results

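The macrophage genes described here are 10 genes that are widely used to recognise macrophages in the testis: Csf1r, Adgre1, Cd163, Mrc1, C1qa, C1qb, C1qc, Aif1, Cd68 and H2-Ab1. They were taken by gene symbol, through their Ensembl identifiers, out of a table of 23074 genes, and all 10 were present and passed the filter on low counts. The RNA-Seq counts of the testis came from 5 mice that were wild type (WT, replicates 1 to 5) and from 6 Rfx2-/- mice (replicates 6 to 11), all at postnatal day 21 (P21) and all on a mixed background of C57BL/6, 129/Sv and FVB/N. Rfx2 encodes a transcription factor of spermatocytes and early round spermatids, and the study asked which testis genes depend on it. In Rfx2-/- mice exon 7 of Rfx2 was excised in the germline with a Cre transgene driven by the ubiquitous actin promoter ACTB, from an allele made in ES cells of 129/Sv origin, so that exon 7 was missing from every cell, macrophages included. The mixed background line that the study describes carried the neomycin cassette of the targeting vector, but the line of these mice is not stated, and WT mice were littermates where possible. RNA came from the whole decapsulated testis, and at this age the first round spermatids are only just forming. Each sample therefore held RNA of macrophages together with that of germ cells, Sertoli cells and Leydig cells.

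Macrophages of the testis lie among the Leydig cells of the interstitium and along the wall of the seminiferous tubules. They depend on signalling through the receptor CSF1R and clear debris and dying cells. The macrophages of the interstitium are known for CSF1R and for the scavenger receptors CD163 and MRC1, and those along the tubules for MHC class II, the proteins that present peptides to T cells. PU.1, encoded by Spi1, is the transcription factor that drives many macrophage genes through short sites with the core GAGGAA near their starts. Factors of the RFX family, RFX2 among them, bind X boxes, which pair short arms such as GTTGCC, with GTTACC as another form of the arm.

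The promoters of 6 members (Mrc1, C1qb, C1qc, Cd163, Cd68 and Aif1) were found in RefSeq's sequence for GRCm38.p6. Each is a window of 300 bases that runs from 250 before to 50 after the start used in that promoter set. This start differs from the gene position printed below from GENCODE vM21, most of all for C1qc. Csf1r, Adgre1, C1qa and H2-Ab1 were not among the promoters used here. Those of Mrc1, C1qb and C1qc are shown as examples of the 8 genes that moved together between mice. That of Aif1 is shown because it did not move with them. Cd163 and Cd68 are also among the 8, and their promoters are not shown. Mrc1 correlated more closely with Cd163 (0.91) and Cd68 (0.90) than with C1qb (0.70) and C1qc (0.73). They lie at chr2:14229164-14229463 on the plus strand and at chr4:136886151-136886450, chr4:136892865-136893164 and chr17:35176003-35176302 on the minus strand. Each reads 5′ to 3′ along its gene, and capitals mark every match to any of these 3 motifs on either strand.
Mrc1 promoter: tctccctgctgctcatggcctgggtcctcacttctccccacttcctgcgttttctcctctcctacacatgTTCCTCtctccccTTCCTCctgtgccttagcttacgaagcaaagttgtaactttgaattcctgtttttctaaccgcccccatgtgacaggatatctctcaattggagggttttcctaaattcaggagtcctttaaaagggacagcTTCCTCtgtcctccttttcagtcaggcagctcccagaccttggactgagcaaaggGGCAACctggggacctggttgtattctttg
C1qb promoter: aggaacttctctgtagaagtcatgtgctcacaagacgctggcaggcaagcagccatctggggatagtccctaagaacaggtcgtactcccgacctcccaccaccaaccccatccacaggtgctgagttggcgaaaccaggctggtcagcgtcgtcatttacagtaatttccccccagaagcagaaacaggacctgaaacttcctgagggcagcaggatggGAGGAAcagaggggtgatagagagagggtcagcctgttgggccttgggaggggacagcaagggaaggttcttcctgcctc
C1qc promoter: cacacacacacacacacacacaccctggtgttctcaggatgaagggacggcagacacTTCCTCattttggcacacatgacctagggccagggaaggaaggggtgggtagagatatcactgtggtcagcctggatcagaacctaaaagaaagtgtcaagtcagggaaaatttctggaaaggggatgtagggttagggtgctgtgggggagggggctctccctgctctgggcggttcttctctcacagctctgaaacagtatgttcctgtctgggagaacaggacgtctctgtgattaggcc
Aif1 promoter: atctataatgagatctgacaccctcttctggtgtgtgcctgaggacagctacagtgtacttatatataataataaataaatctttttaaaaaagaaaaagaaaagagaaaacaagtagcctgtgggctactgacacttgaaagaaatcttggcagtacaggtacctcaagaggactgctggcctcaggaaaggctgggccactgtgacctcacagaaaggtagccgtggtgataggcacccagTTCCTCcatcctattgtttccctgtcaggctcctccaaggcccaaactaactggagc

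GAGGAA was found 3 times in the Mrc1 window, 2 times in that of Cd68, 1 time each in those of C1qb, C1qc and Aif1, and not in that of Cd163. Over 32851 mouse promoters of the same length, 28.3% held at least 1 GAGGAA. The Mrc1 window held 1 GTTGCC, on the minus strand within the 50 bases after the start, and the Cd68 window 1 GTTACC, against 12.5% and 7.21% of all promoters. None of the matches overlapped another. They are matches of letters and were not tested as binding sites.

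In Rfx2-/- testis 0 of the 10 macrophage genes was lower or higher in the quasi-likelihood test of edgeR, at a p up to 0.01 after adjustment by Benjamini-Hochberg, while 1.94% of the 15745 genes tested were lower and 0.73% higher. The Wald test of DESeq2 and limma voom also called 0. Of the 10, 1 gene (Mrc1) was lower and 0 higher at an adjusted p up to 0.05, against 8.78% and 6.15% of all genes tested, and 5 were lower and 0 higher at an unadjusted p up to 0.05, against 23.7% and 18.1%. The fitted log2 fold change of Rfx2-/- over WT was below 0 for 9 of the 10, against 54.8% of all genes. Its median over the 10 was -0.41, and over all genes -0.05. The 9 below 0 include Aif1, at -0.04 with a standard error of 1.01. The other 8 moved together between mice, so they are not 8 separate observations. For none of the 10 did every Rfx2-/- mouse lie below every WT mouse, which was so for 5.2% of all genes, or above, which was so for 6.5%. The p-values measure the spread between these mice. In RNA of the whole testis, fewer macrophages and less of each RNA per macrophage cannot be told apart.

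**Figure D1:**
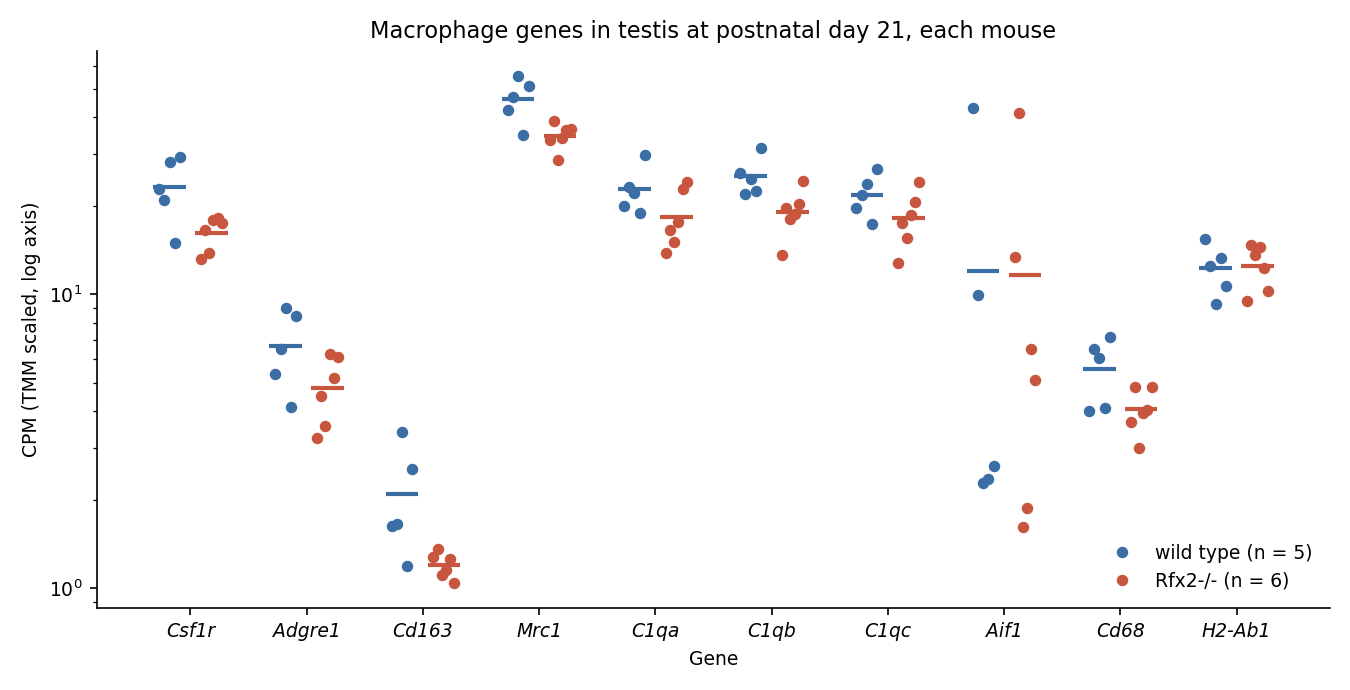
Level of each macrophage gene in each mouse, as CPM on a log axis, with WT mice (n = 5) in blue, Rfx2-/- mice (n = 6) in red and a bar at the mean of each group. The points of the groups overlap for every gene, and those of Aif1 run from 1.62 to 42.9 CPM, a far wider range than for the other 9.

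The levels below are CPM, that is counts relative to the library size after scaling with TMM, a method that sets libraries to a common level over most genes. Csf1r (ENSMUSG00000024621, chromosome 18 from 61100598 to 61132149 of GRCm38, plus strand) encodes the receptor for the growth factors CSF1 and IL34, on which macrophages depend. It had 22.8, 20.9, 28.3, 14.9 and 29.2 CPM in the WT mice in order of replicate, and 13.2, 16.6, 13.8, 18.0, 18.2 and 17.5 CPM in the Rfx2-/- mice. Of the WT mice, 4 lay above every Rfx2-/- mouse, and WT replicate 4 lay among them. The means were 23.2 ± 5.84 CPM (SD, n = 5) and 16.2 ± 2.17 CPM (SD, n = 6), with a log2 fold change of -0.52 (standard error 0.17, adjusted p = 0.0567 from edgeR with Benjamini-Hochberg adjustment over all genes tested, as for every adjusted p below). Of the Csf1r exons, 873 nt overlap exons of Hmgxb3 on the opposite strand, and reads on more than 1 gene had been left out by the authors. Adgre1 (ENSMUSG00000004730), an adhesion receptor of the macrophage surface, ranged from 4.14 to 9.002 CPM in WT and from 3.23 to 6.27 CPM in Rfx2-/- mice. Its log2 fold change was -0.48 (standard error 0.24, adjusted p = 0.1504). Adgre1 lies on chromosome 17 from 57358691 to 57483527, 0.528 Mb from Rfx2, so strain origin around the targeted gene and loss of Rfx2 cannot be told apart there.

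The scavenger receptors came next. Cd163 (ENSMUSG00000008845, chromosome 6 from 124304656 to 124330527), which takes up complexes of haptoglobin and haemoglobin, had the lowest level of the 10, with 24 to 120 reads per mouse. It had 1.62, 1.65, 3.41, 1.19 and 2.55 CPM in the WT mice and from 1.04 to 1.36 CPM, with a median of 1.21, in the Rfx2-/- mice. WT replicates 3 and 5 stood high, WT replicate 4 lay among the Rfx2-/- mice, and the Rfx2-/- mice lay close together. The log2 fold change was -0.79 (standard error 0.25, adjusted p = 0.0523), the lowest value of the 10. Mrc1 (ENSMUSG00000026712, chromosome 2 from 14229392 to 14332057), the mannose receptor, had 42.4, 46.9, 55.3, 34.9 and 51.2 CPM in WT and 33.5, 38.9, 28.6, 34.0, 36.2 and 36.4 CPM in Rfx2-/- mice. WT replicate 4 again lay among the Rfx2-/- mice and the other 4 WT mice above all of them. With means of 46.1 ± 7.89 CPM (SD, n = 5) and 34.6 ± 3.50 CPM (SD, n = 6), the log2 fold change was -0.42 (standard error 0.12, adjusted p = 0.0409). When each mouse was left out in turn, the adjusted p of Mrc1 ran from 0.0132 to 0.104 and stayed at or below 0.05 only without WT replicate 1 (0.0261) or 4 (0.0132). Cd68 (ENSMUSG00000018774, chromosome 11 from 69664213 to 69666153), a glycoprotein of the macrophage lysosome, ranged from 4.02 to 7.17 CPM in WT and from 3.01 to 4.83 CPM in Rfx2-/- mice (log2 fold change -0.46, standard error 0.19, adjusted p = 0.0947).

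C1qa, C1qb and C1qc encode the chains of C1q, which starts the classical complement pathway and is made largely by macrophages. They lie side by side on the minus strand of chromosome 4, C1qb (ENSMUSG00000036905) from 136880129 to 136886187, C1qc (ENSMUSG00000036896) from 136889804 to 136893065 and C1qa (ENSMUSG00000036887) from 136895917 to 136898803. C1qb had 25.8, 21.96, 24.7, 22.5 and 31.4 CPM in WT and 13.6, 19.7, 18.0, 18.7, 20.3 and 24.2 CPM in Rfx2-/- mice. Rfx2-/- replicate 6 was the lowest of all mice, and only Rfx2-/- replicate 11 reached the WT range. Its log2 fold change was -0.40 (standard error 0.14, adjusted p = 0.0660). C1qa ranged from 18.9 to 29.7 CPM in WT and from 13.8 to 24.0 CPM in Rfx2-/- mice, and C1qc from 17.3 to 26.6 and from 12.7 to 24.1 CPM. Both groups overlapped more widely here, with log2 fold changes of -0.32 (standard error 0.17, adjusted p = 0.172) for C1qa and -0.26 (standard error 0.16, adjusted p = 0.231) for C1qc. For all 3 chains, Rfx2-/- replicate 6 was the lowest of the 11 mice and WT replicate 5 the highest.

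Aif1 and H2-Ab1 stood apart from the other members. Aif1 (ENSMUSG00000024397, chromosome 17 from 35170991 to 35176068, minus strand) encodes IBA1, a calcium-binding protein of macrophages and microglia. It had 42.9, 9.92, 2.27, 2.35 and 2.61 CPM in the WT mice, and 13.4, 41.3, 1.62, 1.87, 6.52 and 5.09 CPM in the Rfx2-/- mice. WT replicate 1 and Rfx2-/- replicate 7 stood far above the rest, and both groups covered nearly the same range. The means were 12.0 ± 17.6 CPM (SD, n = 5) and 11.6 ± 15.1 CPM (SD, n = 6), with a log2 fold change of -0.04 (standard error 1.01, adjusted p = 0.976). Leaving out WT replicate 1 turned the log2 fold change to 1.44, and leaving out Rfx2-/- replicate 7 moved it to -1.07. It was also above 0 without any one of Rfx2-/- replicates 8 to 11, between 0.08 and 0.19, so no direction is given for Aif1. H2-Ab1 (ENSMUSG00000073421, chromosome 17 from 34257689 to 34269419, plus strand), the beta chain of an MHC class II molecule, had 15.4, 12.5, 9.29, 13.3 and 10.7 CPM in WT and 9.46, 14.7, 13.6, 14.5, 12.3 and 10.3 CPM in Rfx2-/- mice. Both groups shared the same range, and WT replicates 3 and 5, which were high for Cd163 and Mrc1, were the lowest WT mice here. The log2 fold change was 0.03 (standard error 0.16, adjusted p = 0.901), and its sign changed with the scaling. Aif1 and H2-Ab1 lie 21.6 and 22.5 Mb from Rfx2.

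**Figure D2:**
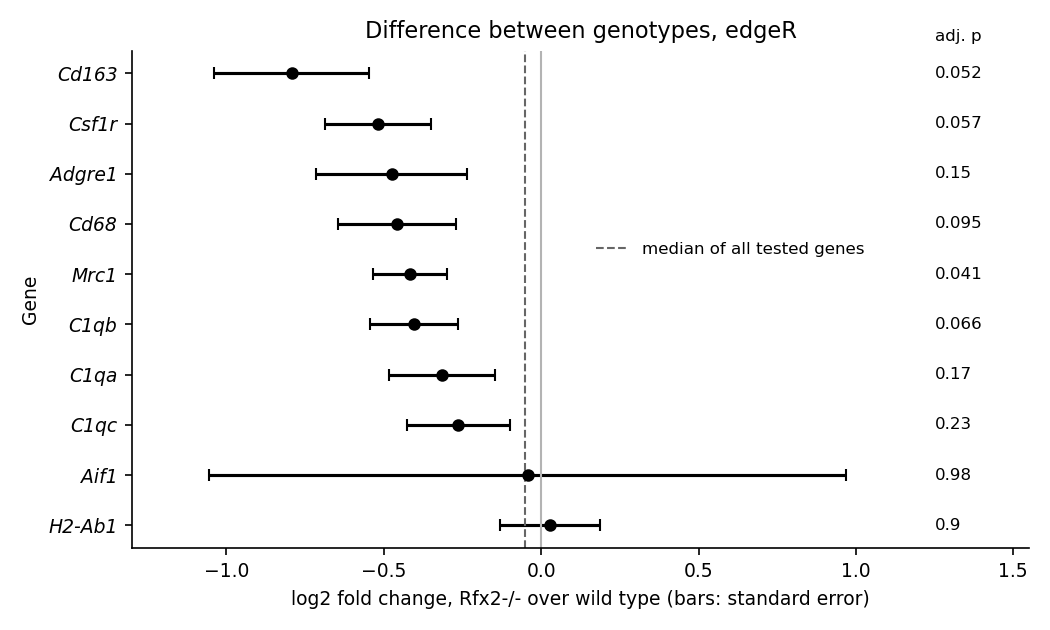
Log2 fold change of Rfx2-/- over WT for each macrophage gene from edgeR (points), with its standard error (bars), the median of all genes tested (dashed line, -0.05) and adjusted p-values at the right. Cd163 is lowest at -0.79 with an adjusted p of 0.0523, Mrc1 has the smallest adjusted p, 0.0409, and the error bar of Aif1 spans 1.01 on either side of its point.

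The level of a macrophage gene can be set beside that of another only per length of its exons, here as CPM per kb of the merged exons of GENCODE vM21. In WT testis the order was C1qb (23.2 ± 3.46 CPM per kb, SD, n = 5), C1qa (21.9 ± 4.07), C1qc (18.1 ± 3.003), Aif1 (10.5 ± 15.4), H2-Ab1 (10.1 ± 1.96), Mrc1 (8.59 ± 1.47), Csf1r (4.66 ± 1.17), Cd68 (4.43 ± 1.14), Adgre1 (2.07 ± 0.631) and Cd163 (0.464 ± 0.198). Most neighbours in this order overlapped between mice. In WT the exceptions were Mrc1 above Csf1r, Cd68 above Adgre1 and Adgre1 above Cd163, whose ranges did not overlap. The same neighbours were apart in Rfx2-/- mice, and there H2-Ab1 also lay above Mrc1 without overlap. Within C1q, the level of C1qa per kb was between 0.808 and 1.11 times that of C1qb in WT and between 0.872 and 1.17 times in Rfx2-/- mice. C1qc per kb was 0.686 to 0.893 times C1qb in WT and 0.777 to 0.916 times in Rfx2-/- mice. C1qc was below C1qb in all 11 mice, and the groups overlapped in both ratios.

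Between mice, 8 of the 10 macrophage genes (without Aif1 and H2-Ab1, which were set apart after their values were seen) went up and down together. Over the 11 mice the Pearson correlation of log2 CPM for the 28 pairs of these 8 genes lay between 0.51 and 0.95, with a median of 0.80. The highest was that of C1qa with C1qc, and the lowest that of Cd163 with C1qa. After the mean of each genotype was taken away, the 28 correlations lay between 0.18 and 0.94, with a median of 0.70. Aif1 had correlations of -0.25 to 0.10 with the 8, and H2-Ab1 of -0.43 to -0.01. These are descriptions, since all genes of a mouse share its library, its depth and the makeup of its testis.

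**Figure D3:**
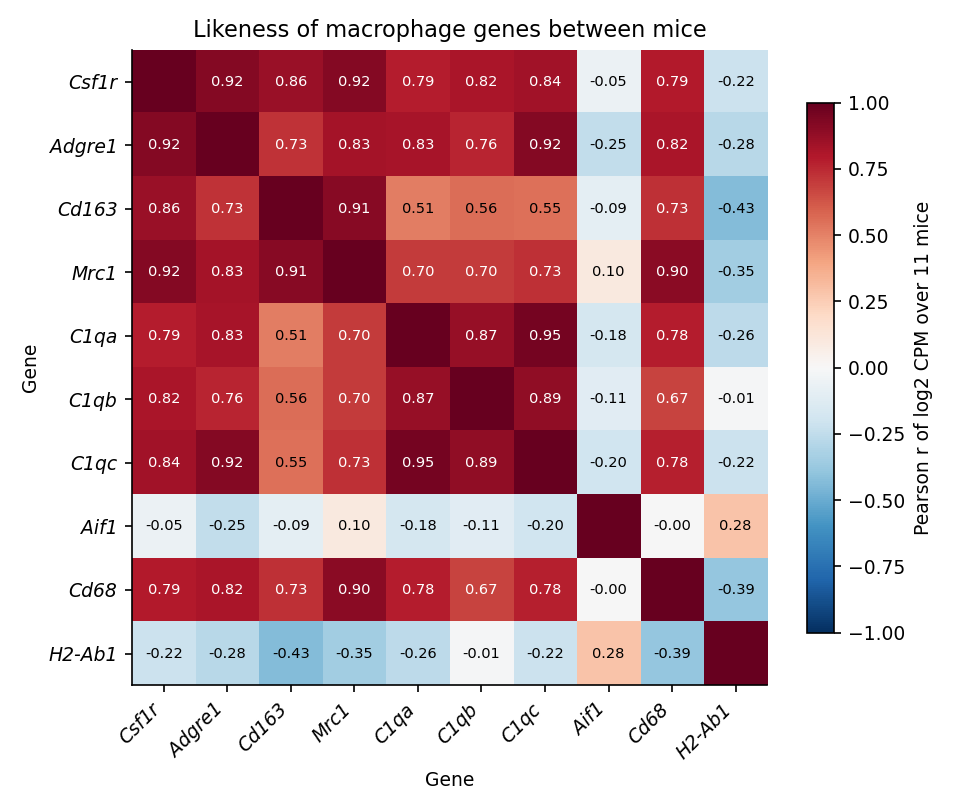
Pearson correlation of log2 CPM over the 11 mice for each pair of macrophage genes, from blue (-1) through white (0) to red (1), with the value printed in each square. The 8 genes other than Aif1 and H2-Ab1 form a red block between 0.51 and 0.95, and the squares of Aif1 and H2-Ab1 with these 8 are pale or blue.

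The genes most like the 10 were found by their correlation with the mean of the members' centred log2 CPM over the 11 mice. The closest was Trem2 (0.916), a lipid receptor of macrophages, followed by Itgam (0.910), the integrin alpha chain of myeloid cells, Prrt1 (0.908), Ugt1a6a (0.908), Eml2 (0.904), Dlg4 (0.902), Pik3r5 (0.900), Bhlhe40 (0.899), Arhgap24 (0.891) and Cd53 (0.888), a tetraspanin of leukocytes. Leaving Aif1 out of the mean changed the list, with Ctsc, a lysosomal protease, first (0.970), then Unc93b1 (0.957), which carries Toll-like receptors to endosomes, Sirpa (0.956), a myeloid receptor for CD47, and Cd53 (0.951).

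Aif1 instead moved with genes of round spermatids. The 11 round spermatid markers (Acrv1, Tssk1, Tssk2, Tssk3, Tssk6, Spaca1, Prm1, Prm2, Tnp1, Tnp2 and Catsper3) summed to 457, 111, 15.5, 24.7 and 9.65 CPM in the WT mice, and to 247, 556, 28.1, 28.9, 140 and 79.7 CPM in the Rfx2-/- mice. The 6 mice with the most Aif1 were the 6 with the highest sums. The correlation of Aif1 with the mean log2 CPM of these markers was 0.95 over the 11 mice, and 0.98 after the genotype means were taken away. The genes closest to Aif1 were Gpd2 (0.997), a mitochondrial glycerol-3-phosphate dehydrogenase, Stard10 (0.991), Txndc2 (0.990), a thioredoxin of spermatids, Proca1 (0.987) and Prm2 (0.985), a protamine. For the other members the correlation with the round spermatid markers lay between -0.42 (Adgre1) and -0.14 (Mrc1), apart from H2-Ab1 at 0.35. With the round spermatid score as a covariate, the log2 fold change of Aif1 was -0.64 and its adjusted p 0.0493. Which cells the Aif1 reads came from was not tested.

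**Figure D4:**
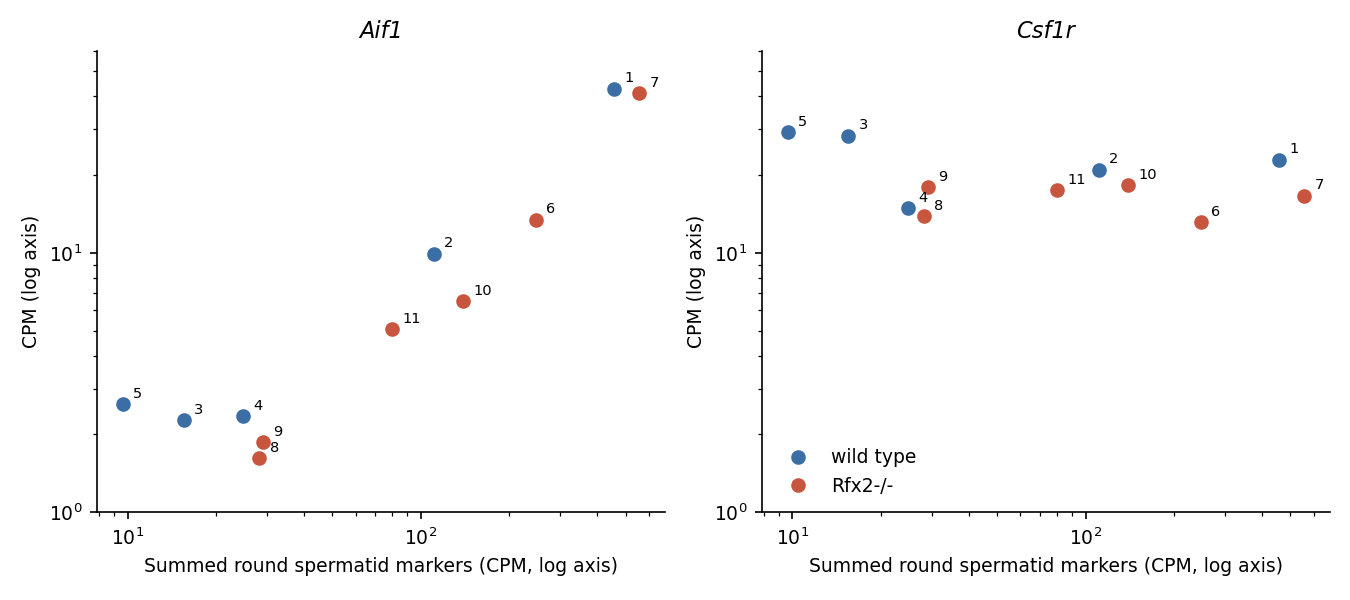
CPM of Aif1 (left) and of Csf1r (right) against the summed CPM of 11 round spermatid markers, with 1 point per mouse, replicate numbers beside the points and log axes. Aif1 runs up to 42.9 and 41.3 CPM in the mice with the highest sums, WT replicate 1 and Rfx2-/- replicate 7, whereas Csf1r stays between 13.2 and 29.2 CPM.

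Aif1 made up 21.4% of the summed CPM of the 10 genes in WT replicate 1 and 23.5% in Rfx2-/- replicate 7, but 1.23% in WT replicate 3. Without it, the other 9 summed to 157, 162, 182, 131 and 197 CPM in the WT mice, and to 104, 135, 112, 133, 141 and 149 CPM in the Rfx2-/- mice. Of the WT mice, 4 lay above every Rfx2-/- mouse in this sum, and WT replicate 4 lay among them.

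The related genes of macrophage pathways were read off the same fit. For comparison with every list below, 1.94% of all genes tested were lower and 0.73% higher at 0.01. At 0.05, 8.78% were lower and 6.15% higher, and 54.8% of all genes were fitted below 0. The first list held ligands and growth factors that act on macrophages or draw them in, together with the receptor chains Csf2ra and Csf2rb. Of its 13 genes 8 were tested, and none was lower or higher at an adjusted p of at most 0.01 or 0.05. Their median log2 fold change was -0.32. Those with the highest CPM were Cxcl12, a chemokine, with a log2 fold change of -0.69 (adjusted p = 0.0762), Csf2ra (-0.07, adjusted p = 0.658) and Cx3cl1 (-0.15, adjusted p = 0.471). All 28 lineage regulators and pan-macrophage genes were tested, and none was called at 0.01. Their median was -0.34 and 25 of 28 lay below 0. At 0.05, 5 were lower, among them the transcription factors Irf8, Maf and Cebpa and the lysosomal protease Lgmn, which are named after their values were seen. Maf had 13.01 ± 3.98 CPM in WT and 7.63 ± 1.32 CPM in Rfx2-/- mice (SD), with a log2 fold change of -0.77 (adjusted p = 0.0318). Lgmn had 142 ± 20.1 and 113 ± 8.75 CPM (-0.33, adjusted p = 0.0404). Mpeg1, a pore-forming protein of macrophages, and Fcgr3, an IgG receptor, did not pass (-0.16, adjusted p = 0.498, and 0.34, adjusted p = 0.266).

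Among 16 tested genes of resident interstitial macrophages, 1 was lower at 0.01 and 5 at 0.05, with a median of -0.41 and 14 of 16 below 0. Gas6, a bridging ligand that ties dying cells to phagocytes and is also made by other testis cells, had 167, 189, 195, 157 and 190 CPM in WT and 132, 136, 136, 144, 135 and 145 CPM in Rfx2-/- mice. Every Rfx2-/- mouse lay below every WT mouse, and the log2 fold change was -0.38 (standard error 0.06, adjusted p = 0.0052). Its WT mean was 70.6 CPM per kb, against 10.5 for Cbr2 of the same list and 23.2 for C1qb. Which cells the Gas6 reads came from was not tested. The number of genes called in this list was 0 when WT replicate 2, 3 or 5, or any 1 of the Rfx2-/- mice, was left out, 2 without WT replicate 1 and 3 without WT replicate 4. The share of all genes called lower moved too, to 2.49% without WT replicate 1 and 1.99% without WT replicate 4. It was 1.21% to 1.62% without WT replicate 2, 3 or 5, and 1.17% to 1.39% without 1 of the Rfx2-/- mice. At 0.05 the list also held Stab1 (-0.92, adjusted p = 0.0127), F13a1 (-0.89, adjusted p = 0.0172), Clec10a (-0.73, adjusted p = 0.0325) and Cbr2 (-0.65, adjusted p = 0.0496), named after their values were seen. Stab1 and Clec10a are endocytic receptors, and F13a1 encodes the A subunit of a clotting factor.

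The other genes of MHC class II presentation had a median of 0.12. Of 14 tested genes 0 was called at 0.01, 1 was higher at 0.05, against 6.15% of all genes, and 6 lay below 0. The regulators of the list had the highest CPM, namely Rfx5 (log2 fold change 0.22, adjusted p = 0.0381, higher at 0.05), Rfxap (0.17, adjusted p = 0.113) and Nfya (-0.14, adjusted p = 0.297), all of which are also expressed outside macrophages. Of 22 complement genes 0 was called at 0.01 and 2 were lower at 0.05, against 8.78% of all genes. Among the 2 was Cd59a (-0.49, adjusted p = 0.0443), an inhibitor of complement that is named after its values were seen. The median was -0.20. C1s1 and C1ra, the proteases that bind C1q, had -0.42 (adjusted p = 0.0793) and -0.35 (adjusted p = 0.127), and the inhibitor Serping1 -0.16 (adjusted p = 0.226). Of 19 genes of phagocytosis and the lysosome 0 was called at 0.01 and 6 were lower at 0.05, with a median of -0.33 and 15 of 19 below 0. The genes of highest CPM were Ctsl (-0.28, adjusted p = 0.0537), Lamp1 (0.16, adjusted p = 0.292) and Ctsd, which was lower at 0.05 (-0.41, adjusted p = 0.0382). Most of these lysosomal genes are expressed in Sertoli cells as well. The lowest fitted values in these lists belonged to Cfd, a complement protease made mainly by fat cells (-2.34, adjusted p = 0.0824), and Cd52, a surface glycoprotein of leukocytes and epididymis (-2.11, adjusted p = 0.171), which ranged from 0.666 to 35 CPM in WT and 0.413 to 6.61 CPM in Rfx2-/- mice, and from 3.12 to 127 CPM in WT and 1.32 to 25.6 CPM in Rfx2-/- mice. Both varied widely between WT mice, were highest in WT replicate 1 and did not pass the test. The complement gene C3 (39.1 CPM) and the neutrophil marker Ltf (12.6 CPM) were also highest in that mouse.

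**Figure D5:**
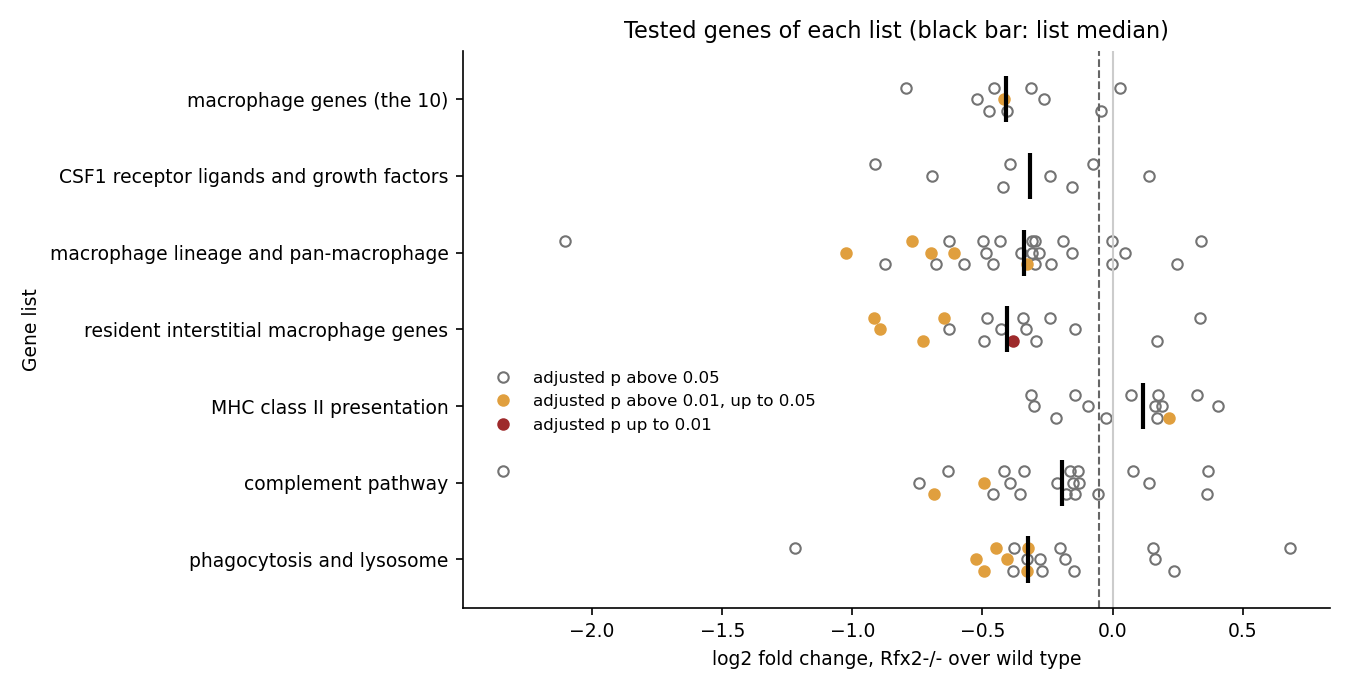
Log2 fold change of Rfx2-/- over WT for each tested gene of the macrophage genes and of 6 related lists, with black bars at the list medians, a dashed line at the median of all genes tested, and fill by adjusted p. The median is -0.41 for the 10 macrophage genes and for the resident interstitial list, and 0.12 for MHC class II presentation, the only list with its median above 0.

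Other cell types moved with the 8 genes as well. The 7 Sertoli cell markers were all fitted below 0, with a median of -0.36, and summed to 480 to 788 CPM in WT and 447 to 556 CPM in Rfx2-/- mice. The 6 endothelial markers were all below 0 too (median -0.36, sums of 30.1 to 57.9 and 29.2 to 35.8 CPM). Across mice the median correlation of the 8 genes was 0.77 with endothelial and 0.72 with Sertoli cell markers, 0.62 with those of spermatogonia, 0.55 with those of peritubular myoid cells, 0.40 with those of Leydig cells, and -0.75 with those of spermatocytes. Spermatogonium markers had a median log2 fold change of -0.42 with 5 of 6 below 0, and peritubular myoid markers one of -0.07 with 4 of 5 below 0. WT replicates 3 and 5 had the highest endothelial and Sertoli sums and the lowest spermatocyte sums, and their TMM factors were both 1.18, against 0.894 to 1.02 in the other mice. Without these 2 mice, a setting chosen after seeing the data, the median of the 8 genes moved from -0.44 to -0.25 and the adjusted p of Mrc1 was 0.196. With libraries scaled to the summed Sertoli markers, the median of the 8 moved from -0.44 to -0.10 and that of all genes from -0.05 to 0.25. Under this shift of all genes, C1qa (0.010) and C1qc (0.060) turned above 0. Whether the makeup of the testis has a part in the fitted values was not tested.

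Of the markers of blood cells that a testis could hold, those of erythroid cells had the highest sums, 42.3 to 119 CPM in WT and 29.6 to 131 CPM in Rfx2-/- mice, with 0 of 5 called and a median log2 fold change of 0.14. Monocyte markers summed to 12.4 to 17.9 CPM in WT and 10.4 to 20.8 CPM in Rfx2-/- mice, and mast cell markers to at most 1.13 CPM, with 0 of 6 tested. Ly6g, a defining neutrophil gene, was at 0 counts in all 11 mice, and the other neutrophil markers summed to at most 17.5 CPM, in WT replicate 1. Most of that sum was Ltf (12.6 CPM) and Mpo (4.51 CPM), while S100a8 had 0.14 and S100a9 0.07 CPM in that mouse. Of 4 tested T cell markers 2 were lower at 0.01 (Lck, log2 fold change -1.26, adjusted p = 0.00169, and Cd3d), while Cd3e was not (-0.26, adjusted p = 0.541). Of 4 tested dendritic cell markers 1 was higher, Flt3 (0.78, adjusted p = 0.0085), while the other 3 were fitted below 0 and were not called, and the median of the list was -0.22. Of 7 markers of Leydig cells, among which interstitial macrophages sit, 1 was lower at 0.01, the steroidogenic enzyme Hsd3b1 (-0.86, adjusted p = 0.00126), and 2 at 0.05. The median of this list was -0.51 with 6 of 7 below 0, and Cyp17a1 had 0.09 (adjusted p = 0.937).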

How the data were processed

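RNA-Seq counts of whole testis were analysed for 11 mice at P21, of which 5 were WT and 6 Rfx2-/-, with 1 library per mouse. According to the authors, reads from TruSeq libraries were mapped to GRCm38, only uniquely mapped reads were kept, and these were counted over the merged exons of a gene's protein coding isoforms. Reads on exons of more than 1 gene were left out. The submitters' processing notes name CASAVA 1.8.2, STAR 2.4 and featureCounts 1.4.6. The authors' methods are not uniform on read length and aligner. The deposited values are raw counts without normalization, with totals between 22232097 and 29769483 per mouse. Counting error therefore weighs most on Cd163, with 24 to 120 reads per mouse. Rfx2 was counted over all exons, so its count does not check the labels. The labels do not say whether mice shared a litter.

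Counts were tested in R 4.3.3 with edgeR 4.0.16 (filterByExpr, TMM, glmQLFit, glmQLFTest, no covariates) over all genes, with Benjamini-Hochberg adjustment, and genes were called up to an adjusted p of 0.01. Log2 CPM used a prior count of 2. Gene positions and exon lengths came from GENCODE vM21, which is later than the authors' annotation, so lengths can differ from those counted. Alternatives were DESeq2 size factors, total counts or summed Sertoli markers to set library sizes, DESeq2 1.42.0 (Wald test), voom of limma 3.58.1, a robust prior, other filters and thresholds, a round spermatid score as covariate, and mice left out. The members and gene lists were chosen with earlier results of these data known. All members were named, with, from each related list, the genes called, up to 8, or else the 3 of highest CPM, and the 10 genes most like the members. H2-Ea-ps, C1rb and C4a were not matched by symbol. A few single genes of the lists are not reported here. The fits were run on simulated data with planted changes, and the share recovered is not reported here. A gene that was not called is therefore not shown to be unchanged. Summaries used Python 3.11.15 (pandas 2.3.3, NumPy 2.4.6), and plots matplotlib 3.10.9.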

Additional observations from a re-analysis of the deposited data

Results flagged for a closer look

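In each genotype the level of each of the 10 macrophage genes was checked for a single mouse far from the others, which made 20 groups. The check used CPM without logs. Chance picks about 1 in 20 only where values spread roughly normally. Aif1 spanned 18.9-fold in WT and 25.5-fold in Rfx2-/- mice, so that rate does not hold for it. A single mouse stood far from the others in 2 of the 20 groups, both for Aif1. WT replicate 1 had 42.9 CPM of Aif1, and its gap to the nearest WT mouse took up a share of 0.812 of the range of the 5 WT mice. Rfx2-/- replicate 7 had 41.3 CPM, with a gap of 0.703 of the range of the 6 Rfx2-/- mice. These mice also had the highest sums of round spermatid markers, 457 and 556 CPM. The largest such share among the other 18 groups was 0.597.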

How the results depend on the processing

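No paired analysis was possible because the labels neither pair mice between genotypes nor give their litters. The number of macrophage genes called lower was 0 in 22 of 24 alternatives, 1 with the limit on adjusted p raised to 0.05 and 2 (Cd163 and Mrc1) when the limit of 0.01 was set on unadjusted p, which 10.2% of all genes passed as lower, and the number called higher was 0 in all 24. H2-Ab1 turned below 0 with total counts (-0.12), voom (-0.11), the round spermatid covariate (-0.0049), and without WT replicates 3 and 5 (-0.13), and when mice were left out in turn it ran from -0.047 to 0.13. Its median correlation with the other members turned to 0.059 with total counts. Aif1 turned above 0 with Sertoli scaling (0.10) and without WT replicate 1 and Rfx2-/- replicate 7 (0.42), and ran from -1.07 to 1.44 when mice were left out in turn. C1qa and C1qc turned above 0 with Sertoli scaling (0.010 and 0.060), which moved the median of all genes to 0.25. Total counts moved that median to -0.22. The cause of these turns was not tested.

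Of all genes, 1.94% were called lower, and this share was 5.79% by DESeq2, 4.33% by voom, 8.78% at 0.05, 10.2% at the unadjusted limit (7.49% higher), 5.18% with the covariate and 0.343% with Sertoli scaling. It was 1.17% to 2.49% with mice left out in turn, 2.72% without WT replicates 3 and 5, and 1.4% without WT replicate 1 and Rfx2-/- replicate 7. Genes called lower in the resident interstitial list numbered 0 with Sertoli scaling, without WT replicates 3 and 5, and without WT replicate 1 and Rfx2-/- replicate 7, 2 with the covariate, 3 by DESeq2 and 3 by voom, 5 at 0.05, 5 at the unadjusted limit, and 0 to 3 with mice left out in turn. For phagocytosis and lysosome they were 4 by DESeq2, 1 by voom, 6 at 0.05, 8 at the unadjusted limit (and 1 higher), 4 with the covariate, and 0 to 1 with mice left out. For the pan-macrophage list they were 2 by DESeq2, 5 at 0.05, 6 at the unadjusted limit, 1 with the covariate, and 0 to 1 with mice left out. For complement they were 1 by DESeq2, 2 at 0.05 and 2 at the unadjusted limit. For MHC class II, 1 gene was higher by DESeq2 (7.28% of all genes), at 0.05 and at the unadjusted limit. Cd163 was not tested at a mean count of at least 50.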
